A study of Mus musculus with 2 samples.

Results

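The glutathione and antioxidant defence of primary and self-renewing macrophages was compared for 10 genes: Slc7a11, Gclc and Gclm, which supply and make glutathione, the glutathione transferases Mgst1, Mgst3 and Gstm1, and the redox enzymes Txnrd1, Srxn1, Prxl2a and Nqo1. They were selected on function and with their differences on these same arrays already known, from 22910 genes named on the array. Their differences are therefore given as a description.

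The primary macrophages were adherent cells grown from bone marrow of C57BL/6 mice until day 5 with 100 ng/ml recombinant human M-CSF, the growth factor that drives macrophage development. The self-renewing macrophages came from bone marrow cells of the same strain kept in the same medium and M-CSF, and were collected after passage 4, when most cells had stopped dividing and growing colonies had appeared. The sources used here name no clone for this sample, and the methods describe the cultures as bulk by default. Male is the label of both samples, and the ages of the mice are not given in the sources used here. RNA of 1 culture of each kind was measured on 1 array with 1 dye, so no difference has a replicate check and no test was made. Signals are given as log2 relative to the array's own 75th percentile, and a difference is the self-renewing minus the primary signal. A probe is called detected where the scanner software marked it as well above background.

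Several facts of the arrays precede the results. All 10 macrophage markers were detected on both arrays, with a summed signal of 942 times the 75th percentile in primary and 1238 times in self-renewing macrophages, although Fcgr1 differed by -1.76 log2 and Mertk by 2.23 log2. Of 10 neutrophil markers, 9 were detected on at least 1 array. Of these 9, 7 (77.8%) were at least 2-fold lower in self-renewing than in primary macrophages and 0 at least 2-fold higher. Over all detected named genes these shares were 8.38% and 4.76%. The summed signal of the neutrophil markers was 119 times the 75th percentile in primary and 6.56 times in self-renewing macrophages. Of this list, S100a9 and S100a8 were at 5.88 and 4.56 log2 on the primary array and not well above background on the other. The neutrophil elastase gene Elane was at 3.05 log2 on the primary and 2.58 log2 on the self-renewing array. Retnlg was detected on neither array, and Cxcr2 on the self-renewing array only. Of 5 markers each of dendritic cells, mast cells, lymphocytes, erythroid cells and fibroblasts, 4, 3, 3, 2 and 1 were detected on at least 1 array, and no such list summed to more than 2.46 times the 75th percentile on either array. Against the label male, Xist was detected in the primary macrophages and not in the self-renewing ones, whereas 4 Y-linked genes were detected in the self-renewing macrophages and not in the primary ones. With 1 array of each kind, neither can be left out. The part of cells that express these neutrophil markers, or of a difference in sex, in the differences below was not tested. In RNA from whole cultures, fewer cells of a type and less RNA per cell cannot be told apart.

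Glutathione is the main small thiol of the cell. Its synthesis needs cysteine, which enters as cystine through the transporter xCT, and its first step is made by glutamate-cysteine ligase. Glutathione transferases couple it to reactive compounds, while the thioredoxin system reduces oxidised proteins and peroxiredoxins in parallel. Many of these genes are induced by the transcription factor NRF2, which binds the antioxidant response element in their promoters together with small Maf proteins. Macrophages produce superoxide and nitric oxide when they take up microbes, and rely on these systems for their own protection.

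The 2 genes with the largest differences are shown first by their promoters. These are the 250 bases before the most upstream start site of Mgst1 and of Prxl2a in RefSeq on GRCm38.p6, written in the direction of the gene. Capitals mark a match to the core of the antioxidant response element, TGACNNNGC, on either strand. The Mgst1 stretch lies at chr6:138140277-138140526 on the plus strand, with 52.0% G and C, and the Prxl2a stretch at chr14:41013834-41014083 on the minus strand, with 54.0%. The first holds 1 match and the second holds 0.
Mgst1: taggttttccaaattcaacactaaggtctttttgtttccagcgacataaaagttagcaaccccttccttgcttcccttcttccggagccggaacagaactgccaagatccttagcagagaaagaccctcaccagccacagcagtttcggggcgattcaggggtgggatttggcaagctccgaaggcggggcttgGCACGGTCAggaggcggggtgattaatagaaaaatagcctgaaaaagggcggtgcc
Prxl2a: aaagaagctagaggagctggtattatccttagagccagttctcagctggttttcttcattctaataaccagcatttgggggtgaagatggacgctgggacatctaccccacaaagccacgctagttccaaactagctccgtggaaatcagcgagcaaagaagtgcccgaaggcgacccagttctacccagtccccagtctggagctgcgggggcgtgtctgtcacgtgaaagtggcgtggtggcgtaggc

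Beyond these stretches, Prxl2a had a match before a start site further downstream, and the windows of Gclm and Txnrd1 held 1 each. They are shown with 10 bases on either side, in the direction of the gene. The match in Gclm began at position -134 from its start site (chr3:122245413-122245441, plus strand) and that in Txnrd1 at -92 from 1 of its start sites (chr10:82859104-82859132, plus strand). The match in Prxl2a lay at chr14:41008273-41008301 on the minus strand.
Gclm: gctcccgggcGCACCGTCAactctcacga
Txnrd1: ctggatttttGCTTTGTCAttctgacacg
Prxl2a: ccctccctatGCCTGGTCAccctgcctac

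Of the 10 genes, 9 had promoter windows of 300 bases in the table, and 5 of the 9 held the core motif, the fifth being Srxn1. Gclc had no window. The core was present in 14.0% of 27025 genes and 12.4% of 32851 windows. The narrower form TGACTCAGC, which the core contains, was in 0 of the 9 and in 0.503% of all genes. A gene counted if any of its windows held the motif, and Prxl2a and Txnrd1 had 5 and 3 windows. The differences of the 5 genes were -8.73 log2 for Mgst1, -7.55 for Prxl2a, -1.04 for Srxn1, -0.28 for Txnrd1 and 0.55 for Gclm. The other genes with a window held no match. Their differences were -0.74 log2 for Nqo1, -0.66 for Slc7a11, -0.62 for Gstm1 and 0.42 for Mgst3. The genes were chosen with these differences known. Each window began 250 bases before a start site, so elements further upstream were not looked for. A match is a description of these letters only.

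The 10 genes were represented by 14 probes, of which 4 genes had 2 and 6 genes had 1. Each of the 10 was detected on at least 1 array and 9 on both. Mgst1, Prxl2a and Srxn1 were at least 2-fold lower in the self-renewing macrophages, which was the case for 8.38% of all 15516 named genes detected on 1 or both arrays, and 0 of the 10 were at least 2-fold higher, against 4.76% of all genes. Since the genes were chosen with these differences known, nothing is read from these shares. The remaining 7 genes differed by less than 2-fold, with 3 higher and 4 lower. The median of the 10 was -0.64 log2, where the median of all genes was -0.02 log2. The gene just past 2-fold was Srxn1 at -1.04 log2 and the gene just short of it was Nqo1 at -0.74 log2.

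**Figure D1:**
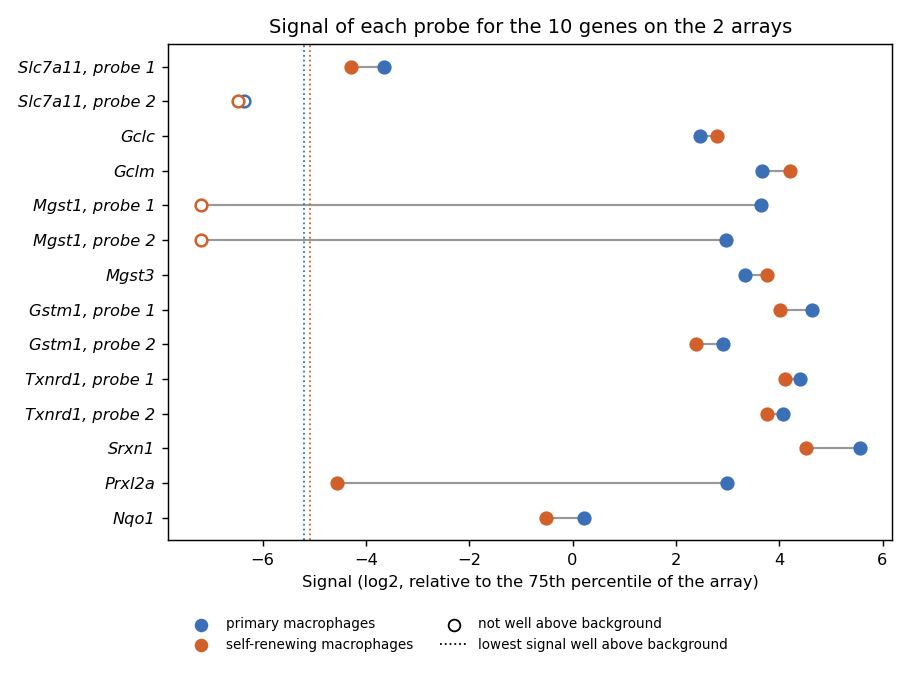
Signal of each of the 14 probes, in log2 relative to the 75th percentile of its array, in primary (blue) and self-renewing (orange) macrophages, 1 array each. Open circles are not well above background and dotted lines mark the lowest signal well above background; both Mgst1 probes go from 3.65 and 2.96 log2 to open circles, and Prxl2a goes from 2.99 to -4.56 log2.

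Among the glutathione transferases, Mgst1 showed the largest difference. Mgst1 encodes a transferase and peroxidase of the endoplasmic reticulum and outer mitochondrial membranes, which detoxifies lipid peroxides. Its brighter probe had an intensity of 5441 in primary macrophages and 3.05 in self-renewing macrophages, and its second probe had 3384 and 3.07. Both probes were thus bright in primary macrophages and not well above background in the other culture. There, 62.0% and 64.0% of the 308 negative control spots were at or below the signals of the probes. Taken against the lowest detected signal of the self-renewing array, an intensity of 13.2, Mgst1 was at least 425-fold lower by the brighter probe and at least 265-fold lower by the other, or -8.73 and -8.05 log2. By its bound it stood at rank 5 from the lowest of all genes. A model-based background correction, which adds an offset to all signals, gave -6.24 log2, short of that bound.

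Mgst3, a related membrane enzyme of the same MAPEG family, was bright on both arrays. Its signal was 3.34 log2 in primary and 3.76 log2 in self-renewing macrophages, a difference of 0.42 log2 or 1.34-fold, by 1 probe. Of all genes, 37.2% differed by at least this much in either direction. Mgst2, a further microsomal transferase, which also makes leukotriene C4, was 7.39-fold higher in self-renewing than in primary macrophages, at 4.48 against 1.60 log2. The 3 microsomal transferase genes thus differed by -8.73, 2.88 and 0.42 log2 for Mgst1, Mgst2 and Mgst3. Mgst2 was not among the 10 genes but in a wider list described below.

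Gstm1 encodes a cytosolic transferase of the mu class. Its brighter probe had 4.64 log2 in primary and 4.02 log2 in self-renewing macrophages, and its second probe 2.91 and 2.39 log2. The differences were -0.62 and -0.52 log2, or 1.53-fold and 1.43-fold lower, so the probes went the same way. The mu class genes are close copies of each other and the sequences of the probes were not used here, so that signal shared between them is uncertain.

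For the supply and synthesis of glutathione, the 2 subunits of glutamate-cysteine ligase were slightly higher in the self-renewing macrophages. Gclc, the catalytic subunit, had 2.46 log2 in primary and 2.80 log2 in self-renewing macrophages, a difference of 0.33 log2 or 1.26-fold. Gclm, the modifier subunit that makes the enzyme more active, had 3.67 and 4.21 log2, a difference of 0.55 log2 or 1.46-fold. Both were bright on both arrays and were measured by 1 probe each, and 45.4% and 28.0% of all genes differed by as much as Gclc and Gclm. Slc7a11, which encodes the transporter chain of xCT, was dim in both kinds of cell. Its better probe had -3.64 log2 in primary and -4.30 log2 in self-renewing macrophages, which was 1.56 and 0.78 log2 over the lowest detected signal of each array. The difference was -0.66 log2 or 1.58-fold lower. A second probe, at -6.36 and -6.48 log2, was not well above background on either array. With the model-based background correction, the difference of Slc7a11 was -0.19 log2.

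Among the genes of the thioredoxin and peroxiredoxin systems, Prxl2a showed the largest difference. Prxl2a encodes a peroxiredoxin-like protein, also called PAMM for its activation in monocytes stimulated with M-CSF. Its probe had an intensity of 3433 in primary macrophages and 18.9 in self-renewing macrophages. It was detected on both arrays, but in the self-renewing macrophages only 0.52 log2 over the lowest detected signal. The difference was -7.55 log2, or 187-fold lower, at rank 13 from the lowest of all genes. It was measured by 1 probe in 1 spot, for which the scanner software gave an error of 10.0% on the primary and 19.8% on the self-renewing array. With the model-based background correction the difference was -5.31 log2. Its relatives Prxl2b and Prxl2c differed by 0.64 and -0.45 log2.

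Srxn1 encodes sulfiredoxin, which restores peroxiredoxins after overoxidation. Its signal was 5.56 log2 in primary and 4.51 log2 in self-renewing macrophages, and it was 2.06-fold lower in the latter. This lay at the threshold, and the difference was -0.86 log2 with the authors' scaled values and -0.999 log2 with quantile normalization, both short of 2-fold. Txnrd1, the cytosolic thioredoxin reductase, was 4.40 and 4.12 log2 by its brighter probe and 4.06 and 3.77 log2 by its second. Both probes gave a small difference, -0.28 and -0.30 log2, and 52.0% of all genes differed by as much. Nqo1, which reduces quinones and is a standard target of NRF2, was 0.22 log2 in primary and -0.52 log2 in self-renewing macrophages, or 1.67-fold lower.

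**Figure D2:**
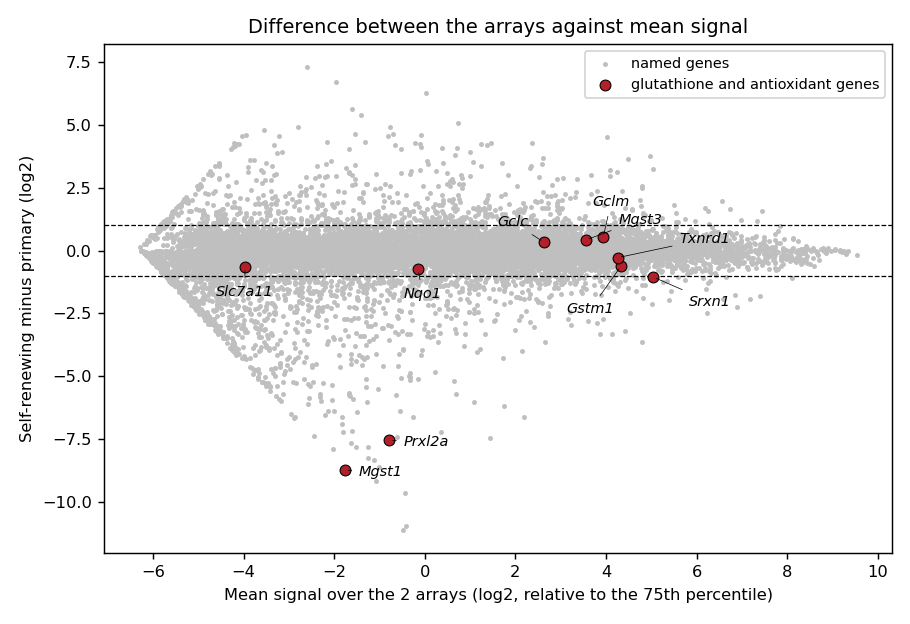
Difference between self-renewing and primary macrophages (log2) against mean signal over both arrays (log2 relative to the 75th percentile) for 15516 named genes (grey) and the 10 glutathione and antioxidant genes (red). Dashed lines mark 2-fold, genes well above background on 1 array only are drawn at their bounds and form the slanted edges, and Mgst1 and Prxl2a lie at -8.73 and -7.55 log2 while the other 8 lie between -1.04 and 0.55 log2.

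The differences of the 10 genes kept their direction under all 8 other ways of processing the arrays. Mgst1 ranged from -10.84 to -6.24 log2, where -10.84 log2 comes from using no filter and takes at face value a self-renewing signal that was not well above background and so is no measured size. Prxl2a ranged from -7.56 to -5.31 log2 over these alternatives. The 3 higher genes stayed above 0, Gclc from 0.31 to 0.52 log2, Gclm from 0.49 to 0.74 log2 and Mgst3 from 0.37 to 0.61 log2. Mgst1 had no value when only probes detected on both arrays were used. For comparison, the log2 difference varied between probes of 1 gene with an SD of 0.32 over 5077 genes, which is about the size of the differences of Gclc and Txnrd1.

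**Figure D3:**
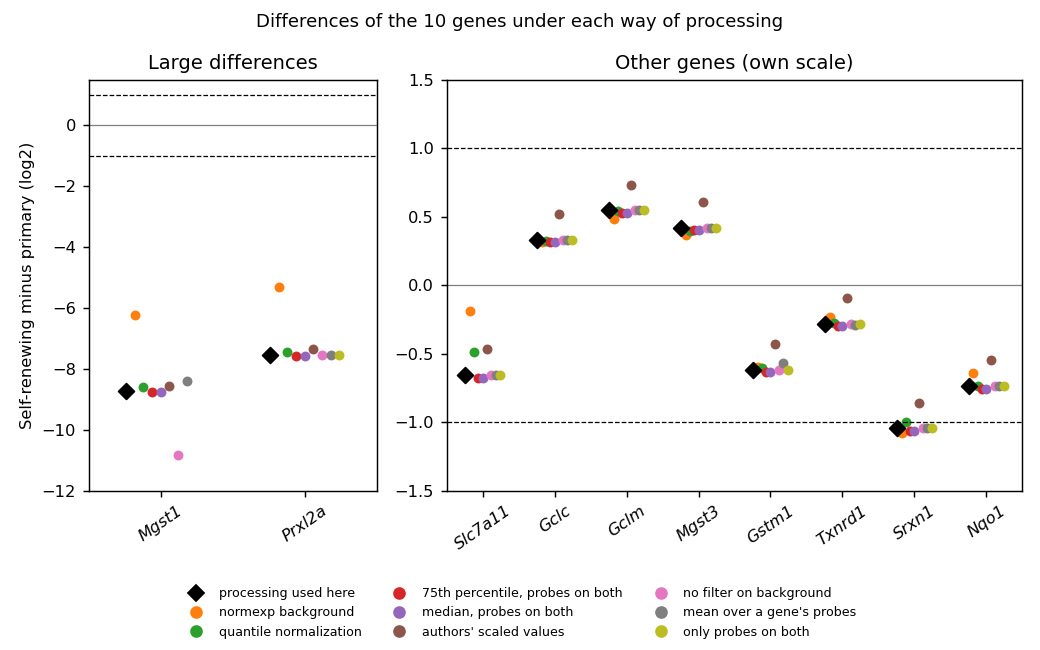
Difference between self-renewing and primary macrophages (log2) of each of the 10 genes under the processing used here (black diamonds) and 8 alternatives (coloured points), with separate scales for the 2 panels and dashed lines at 2-fold. No gene crosses 0, and Srxn1 crosses 2-fold with the authors' scaled values, at -0.86 log2, and with quantile normalization.

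The wider pathway was examined with 115 other genes in 6 groups by role. On at least 1 array 105 of them were detected, while 9 were detected on neither and 1 had no named probe. At least 2-fold lower in the self-renewing macrophages were 11 genes, or 10.5%, against 8.38% of all genes, and at least 2-fold higher were 9, or 8.57%, against 4.76%. The median of the list was 0.01 log2. With the authors' scaled values 14 genes of the list were at least 2-fold higher, where 1035 rather than 739 of all 15516 genes were. With only probes detected on both arrays 7 of 98 were at least 2-fold lower, where 782 of all 14007 genes were. The range was widest in the group of glutathione transferases, from -4.00 to 4.29 log2, with a median of -0.26 log2.

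Within the group of glutathione transferases and MAPEG proteins, genes differed in both directions. Of 22 measured genes, 5 (22.7%) were at least 2-fold lower and 3 (13.6%) at least 2-fold higher, against 8.38% and 4.76% of all genes. The pi class genes Gstp1 and Gstp2 were lower, with Gstp2 at 4.15 log2 in primary and 0.15 log2 in self-renewing macrophages, or 16.0-fold lower, and Gstp1 11.3-fold lower. The mu class gene Gstm2 was 9.15-fold lower. With the model-based background correction the differences of Gstp1 and Gstm2 were -2.55 and -2.50 log2, against -3.50 and -3.19 log2 here. Gstt2 and Gstm5, named after their values were seen, differed by -1.52 and -1.36 log2, and a second Gstm5 probe gave -2.90 log2. In the other direction, the alpha class gene Gsta3 was 0.22 log2 in primary and 4.51 log2 in self-renewing macrophages, 19.6-fold higher, and its second probe gave 4.22 log2. Ltc4s, the leukotriene C4 synthase, was 4.07-fold higher, as was Mgst2 by the larger amount given above. Alox5ap, which presents arachidonic acid to 5-lipoxygenase, was bright on both arrays with a difference of 0.06 log2. Ptges, a prostaglandin E synthase, gave 0.11 log2 by its brightest probe and 1.32 and 0.95 log2 by its dimmer ones. The Gstp1 and Gstp2 genes are near-identical copies, so how the signal divides between them is uncertain.

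In the group of glutathione synthesis and turnover, 16 genes were measured, with a median of 0.05 log2. Of these 16, 2 were at least 2-fold lower and 1 at least 2-fold higher. Over all genes, 8.38% were lower and 4.76% higher by that much. Cth, which makes cysteine from cystathionine, was detected in primary macrophages only and at least 3.40-fold lower in self-renewing macrophages. Ggt7 was at least 2.14-fold lower and Ggt5, a glutathione-cleaving transpeptidase, 2.25-fold higher, and both were dim, so that neither passed 2-fold with the model-based background correction, nor did Cth. Slc3a2, the heavy chain that carries xCT to the membrane, differed by 0.28 log2, and Dpep2, a membrane dipeptidase, by -0.26 log2.

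Among glutathione peroxidases, catalase and superoxide dismutases, 10 genes were measured. At least 2-fold lower was 1 (10.0%) and at least 2-fold higher 1 (10.0%), against 8.38% and 4.76% of all genes. Gpx3, the secreted glutathione peroxidase, was at -2.41 log2 in primary macrophages and not well above background in self-renewing macrophages, at least 6.37-fold lower, or -2.67 log2. Gpx2 was 2.16-fold higher. With the model-based correction Gpx3 was at -1.07 log2, short of its bound, and Gpx2 at 0.93 log2, short of 2-fold. Gpx1, the main cytosolic enzyme, and Sod1, the copper-zinc superoxide dismutase, were bright and differed by -0.09 and -0.28 log2.

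Of 23 measured genes of peroxiredoxins, thioredoxins and their repair, 2 (8.7%) were at least 2-fold lower and 1 (4.35%) at least 2-fold higher. Over all genes these shares were 8.38% and 4.76%. Sesn3, a sestrin, was at -1.22 log2 in primary macrophages and at least 14.6-fold lower in self-renewing macrophages, while its relative Sesn2 was 2.23-fold higher. The bound of Sesn3 was -3.87 log2, and the model-based correction gave -1.99 log2. Msra, which repairs oxidised methionine, was 2.20-fold lower. Prdx1, an abundant peroxiredoxin, had 3 probes at -0.11, -0.20 and -0.11 log2. Glrx2, a glutaredoxin, had 2 probes that disagreed in level and difference. The brighter, used here, had 9.27 log2 in primary and 9.24 log2 in self-renewing macrophages, a difference of -0.02 log2. The other had 3.56 and 4.63 log2, a difference of 1.07 log2, past 2-fold. Which of them follows Glrx2 was not tested.

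Of 23 further NRF2 targets and NADPH-producing enzymes, 1 (4.35%) was at least 2-fold lower and 2 (8.7%) at least 2-fold higher. Over all genes these shares were 8.38% and 4.76%, and the median of the group was 0.01 log2. Ephx1, the microsomal epoxide hydrolase that acts on reactive epoxides as glutathione transferases do, was 3.41 log2 in primary and 6.67 log2 in self-renewing macrophages, 9.59-fold higher. Osgin1, an oxidative stress response gene, was 2.19-fold higher and Akr1b8, an aldo-keto reductase, 2.27-fold lower. The ferritin genes Fth1 and Ftl1 differed by -0.02 log2 each. With the authors' scaled values, Akr1b8 and Msra were short of 2-fold, and Fth1, Ftl1, Gpx1, Prdx1 and Glrx2 were above 0 rather than below it, as were Gpx1, Prdx1 and Glrx2 with quantile normalization.

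**Figure D4:**
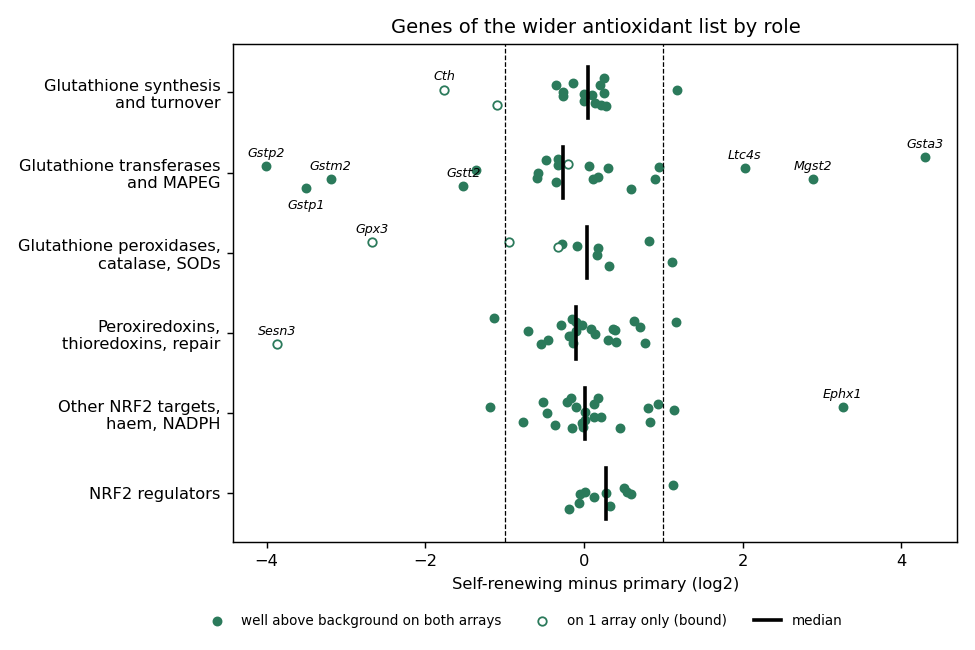
Difference between self-renewing and primary macrophages (log2) of the measured genes of the wider list in 6 groups by role, with filled points for genes well above background on both arrays, open points for bounds and black bars for medians. The glutathione transferases reach from -4.00 log2 (Gstp2) to 4.29 log2 (Gsta3), while NRF2 regulators lie between -0.19 and 1.12 log2.

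All 11 regulators of NRF2 were detected on both arrays. At least 2-fold lower were 0 and at least 2-fold higher 1 (9.09%), against 8.38% and 4.76% of all genes. Nfe2l2, which encodes NRF2, was 4.47 log2 in primary and 4.97 log2 in self-renewing macrophages, a difference of 0.50 log2. Keap1, which holds NRF2 for degradation, and its ubiquitin ligase partners Cul3 and Rbx1 differed by 0.02, -0.06 and -0.05 log2, and each changed sign under at least 1 other scaling. Bach1, a repressor of NRF2 targets, differed by 0.32 log2. The small Maf genes Mafg, Mafk and Maff differed by 0.59, 0.55 and 1.12 log2, where Maff, the gene past 2-fold, was dim in primary macrophages at -2.44 log2 and differed by 0.73 log2 with the model-based correction, short of 2-fold. Nfe2l1 and Sqstm1, the latter an adaptor that binds KEAP1, differed by 0.27 and 0.12 log2. Atf4, which drives genes of amino acid supply, was -0.19 log2, and 0.00 log2 with the authors' scaled values.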

How the data were processed

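RNA of 1 primary and 1 self-renewing macrophage culture was labelled with 1 dye and hybridised to Agilent SurePrint G3 mouse arrays. The intensity values deposited by the authors are the output of Feature Extraction 11.5.1.1, background-subtracted and detrended within each array, with a software error and flags. The authors also deposited a table of intensities equal to these times 1 constant per array, 1.07 and 1.19, whose origin is not given in the sources used here. Flags deposited by the authors, other than intensities, mark outlier spots and spots well above background.

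Here, 63 outlier spots per array were left out, spots of a probe were averaged, and log2 was taken relative to the 75th percentile over gene probes, at an intensity of 434 and 446. Probes were named through transcript accessions in a RefSeq table of GRCm38.p6, which matched 58.3% of 56598 probes. Probes with other accessions were not used here. The array was designed on an older build, so no probe position is given. For each gene, the probe of highest mean signal was used among those the software marked as well above background (detected) on 1 or both arrays. A probe detected on 1 array only gives a bound, taken from its own signal on the other array or, if that is lower, the lowest detected signal there (11.8 on the primary and 13.2 on the self-renewing array), given in the text as "at least" a fold.

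Differences were judged by size at 2-fold, without a test. The number of arrays, 1 per group, limits the precision. The genes, the lists and the rules were chosen with earlier results of these data known. In the wider lists, the 6 largest differences of at least 2-fold and the 2 brightest genes of each group, all NRF2 regulators and relatives of Mgst1 and Prxl2a were named. The alternatives were normexp with an offset of 50 on the median signals, quantile normalization, 2 scalings over probes detected on both arrays, the table scaled by the authors, 2 other filters and the mean over probes. Promoter windows came from RefSeq. A planned comparison of protein sequences was not made. The scripts were tested on simulated data in which every detected probe was detected on both arrays, so the bounds were not covered. The genes changed there were not dim on either array. Python 3.11.15, numpy 2.4.6, pandas 2.3.3, matplotlib 3.10.9, R 4.3.3 and limma 3.58.1 were used.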

Additional observations from a re-analysis of the deposited data

How the results depend on the processing

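No paired analysis was possible because only a single array was made per culture. Direction and size are therefore compared across 8 alternatives only. The number of the 10 genes at least 2-fold lower was 2 or 3 under every alternative, with Mgst1 and Prxl2a among them except that Mgst1 has no value with only probes detected on both arrays, and the number at least 2-fold higher was 0. Their median of -0.64 log2 was -0.41 log2 with normexp and -0.45 log2 with the authors' scaled values, which raise all genes by 0.19 log2. For the wider list, 14 genes rather than 9 were at least 2-fold higher with the authors' scaled values, 7 rather than 11 were lower with only probes on both arrays, and the median of 0.01 log2 was 0.20 log2 with the authors' scaled values, 0.0675 log2 with quantile normalization and 0.0726 log2 with only probes on both arrays. Over all genes, 739 were higher and 1300 lower here, 429 and 750 with normexp, and 1035 and 1069 with the authors' scaled values. With no filter they were 1192 and 2336 over 22910 genes, and with only probes on both arrays 782 of 14007 were lower. The share of higher genes among those at 2-fold was 36.2% here and 49.2% with the authors' scaled values. Normexp adds an offset and so draws dim genes together by construction. The authors' scaled values shift measured differences by a constant 0.19 log2. The filter on both arrays leaves out every probe with a bound, and both of these effects also follow by construction. For the remaining changes the cause was not tested. For 54 named genes the alternatives gave 427 values, of which 408 lay within the SD of 0.32 log2 between probes of a gene from the value used and 19 lay further off, in 13 genes, and 0 of the differences of at least 2-fold turned round. Signal over background limits the values of Slc7a11 on both arrays and of Mgst1 and Prxl2a in the self-renewing macrophages.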

Other observations

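The enzymes that produce superoxide and nitric oxide, against which these defences act, were also looked at. Of 11 genes of the NADPH oxidases and nitric oxide synthase, 8 were detected, with 2 at least 2-fold higher in self-renewing than in primary macrophages, 0 at least 2-fold lower and a median of 0.33 log2. These were 25.0% and 0 of the 8 detected genes, where 4.76% of all genes were higher and 8.38% lower by that much. Cybb, the catalytic subunit of the phagocyte NADPH oxidase, was 2.46 log2 in primary and 3.68 log2 in self-renewing macrophages, or 2.32-fold higher, and its second probe gave 1.30 log2. Ncf1, the cytosolic subunit p47phox, was 2.25-fold higher, with 3 probes at 1.17, 1.06 and 1.12 log2. Cyba, the partner of Cybb in the membrane, and Ncf4 were bright on both arrays and differed by 0.12 and 0.33 log2. Nos2, the inducible nitric oxide synthase, and Rac1, a GTPase of the oxidase complex, differed by -0.45 and -0.53 log2, and were named after their values were seen. Cybb and Ncf1 were at least 2-fold higher under each of the 8 alternatives.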
